A study of Homo sapiens with 6 samples.

Results

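Distal 10q, the outer stretch of the long arm of chromosome 10, held 2177 of the 33656 peaks in 6 deposited peak lists. Its members were all peaks whose midpoint lay at 60 Mb or beyond on chromosome 10 of the human T2T-CHM13v2.0 assembly, and the stretch was taken to run to the last base under a peak in any list (chr10:60000001-134574000, 74.574 Mb). CENP-A is the histone H3 variant that marks centromeric chromatin and carries the kinetochore, and it is normally scarce on chromosome arms. DNAJC9 is a heat shock co-chaperone that binds histones H3 and H4 and helps to keep them in a usable fold. The gene encoding DNAJC9 itself lies on chromosome 10. hTERT-RPE1, an immortalised retinal pigment epithelial line, is known to carry an extra copy of part of 10q joined to an X chromosome. Copy number was not measured here and its part in the counts was not tested.

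CUT&RUN, in which a nuclease held by an antibody releases the DNA around a chromatin protein, had been run on RPE1-Tet-GFP-CENP-A cells, an hTERT-RPE1 line with doxycycline (DOX)-inducible GFP-CENP-A. Cells received either the control siRNA (siNeg) or siDNAJC9 for 96 h in all and 1 µg/ml DOX for the last 48 h, so each group carried induced GFP-CENP-A. For each siRNA there were 2 CENP-A libraries (replicates 1 and 3, described by the study as biological repeats) and 1 mouse IgG library (replicate 2), which shows where peaks were called without a CENP-A antibody. All libraries came from 1 cell line and none was from cells without DOX.

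The lists gave positions only, with no read count, score or p-value. The study states a range of total reads for its samples, but the depth of each single library is unknown. siNeg CENP-A replicates 1 and 3 had 62 and 24 peaks on distal 10q, of 1321 and 846 in the whole lists. siDNAJC9 CENP-A replicates 1 and 3 had 555 and 474, of 11411 and 9018. The IgG lists had 374 of 4156 with siNeg and 688 of 6904 with siDNAJC9. Both IgG lists therefore held more distal 10q peaks than either siNeg CENP-A list, and the siDNAJC9 IgG list held more than either siDNAJC9 CENP-A list. Distal 10q makes up 2.54% of the genome outside centromeric windows (the 5-Mb window of each chromosome with the most siNeg replicate 1 coverage). It held 13.4% and 16.7% of the peaks outside these windows in the siNeg CENP-A lists, 5.13% and 5.58% in the siDNAJC9 CENP-A lists, and 9.09% and 10.1% in the siNeg and siDNAJC9 IgG lists.

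The centromeric window of chromosome 10 (chr10:37293001-42293000) served as a check of the antibody. CENP-A peaks covered 664 and 506 kb of it in the siNeg replicates and 357 and 312 kb in the siDNAJC9 replicates, against 12 and 38 kb in the siNeg and siDNAJC9 IgG lists. All 4 CENP-A lists thus stood above both IgG lists at the centromere. Since siNeg replicate 1 set the position of the window, its own value there is a description.

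Along the arm, each list was denser on distal 10q than on chromosome 10 before it. The length under peaks, in kb per Mb, was 4.38 and 1.72 on distal 10q in siNeg CENP-A replicates 1 and 3, against 0.836 and 0.0909 on chromosome 10 before 60 Mb outside the window. It was 59.1 and 47.7 in siDNAJC9 CENP-A replicates 1 and 3, against 28.5 and 23.9. In the IgG lists it was 30.8 with siNeg and 59.4 with siDNAJC9, against 8.45 and 12.7. The ratio of distal 10q to the rest of the chromosome was thus 5.24 and 18.9 in the siNeg CENP-A replicates, 2.07 and 1.99 in the siDNAJC9 CENP-A replicates, 3.65 in the siNeg IgG list and 4.68 in the siDNAJC9 IgG list. The 18.9 rests on 1 peak before the stretch. The start at 60 Mb had been set on the siNeg IgG list, so that these ratios exceed 1 is a description without a test.

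The rest of chromosome 10 lay close to the other autosomes. Set against the other autosomes, the length under peaks per Mb before 60 Mb came to 1.05 times theirs in siNeg CENP-A replicate 1, 0.341 times in replicate 3, and 1.02 and 1.17 times in siDNAJC9 CENP-A replicates 1 and 3. The corresponding ratios for the siNeg and siDNAJC9 IgG lists were 1.10 and 0.953, so that of the 6 lists siNeg replicate 3, with its 1 peak, stood furthest off. Distal 10q itself stood at 5.51 and 6.43 times the other autosomes in the siNeg CENP-A replicates, 2.11 and 2.33 times in the siDNAJC9 CENP-A replicates, and 4.01 and 4.46 times in the IgG lists. In the siDNAJC9 CENP-A lists the rest of chromosome 10 was not even: replicates 1 and 3 had 33.5 and 28.5 kb per Mb on the short arm side of the window and 18.1 and 14.4 on the long arm before 60 Mb.

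**Figure D1:**
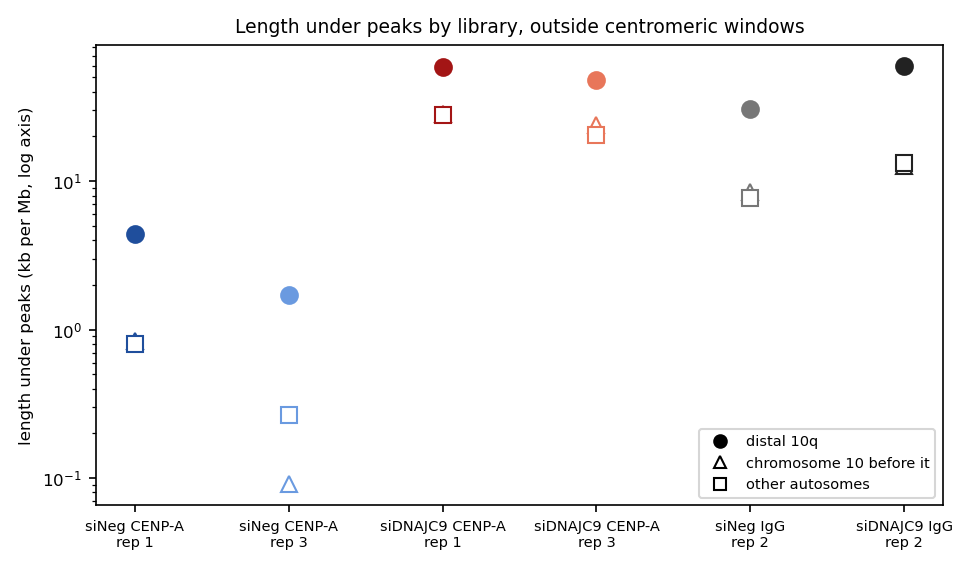
Length under peaks (kb per Mb, log axis) for each of the 6 lists on distal 10q (filled circles), on chromosome 10 before it (open triangles) and on the other autosomes (open squares), outside centromeric windows. The circle is the highest of the 3 symbols in every list, at 4.38 and 1.72 kb per Mb in the siNeg CENP-A lists and 47.7 to 59.4 kb per Mb in the 3 siDNAJC9 lists.

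The position of the rise differed between lists by several Mb. A single change point in the number of peaks per 1-Mb bin, sought from the end of the centromeric window to the chromosome end, fell at 59 Mb in both siDNAJC9 CENP-A lists, at 62 Mb in siNeg CENP-A replicate 3 and the siNeg IgG list, at 65 Mb in siNeg CENP-A replicate 1 and at 69 Mb in the siDNAJC9 IgG list. In the last of these it moved to 132 Mb by length under peaks and to 63 Mb when sought along the whole chromosome, so its place among the lists depended on the measure and the stretch, while the other 5 lists kept their positions under both changes. Mean peaks per bin across the change rose from 1.88 to 7.49 and from 1.53 to 6.38 in siDNAJC9 CENP-A replicates 1 and 3. In siNeg replicates 1 and 3 they went from 0.0870 to 0.871 and from 0 to 0.329. In the IgG lists they went from 1.70 to 5.08 with siNeg and from 3.11 to 9.71 with siDNAJC9. The single step took up 31.7% and 32.3% of the variance between bins in the IgG lists, 14.9% and 14.6% in the siDNAJC9 CENP-A lists, and 14.0% and 5.33% in the siNeg CENP-A lists. In all 6 lists most of the unevenness along the arm therefore lay outside the step, and more of it did in the CENP-A lists than in the IgG lists.

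The edge at 60 Mb ran through uneven ground. In the bin just outside it (59 to 60 Mb) siDNAJC9 CENP-A replicates 1 and 3 had 14 and 11 peaks and the siNeg IgG list 6, with 0 in each of the other lists. In the bin just inside (60 to 61 Mb) siDNAJC9 replicates 1 and 3 had 3 and 2 peaks, the siDNAJC9 IgG list 2, and the others 0. The first member was chr10:60187001-60192000 in siDNAJC9 replicate 1 and chr10:60213001-60219000 in replicate 3, but chr10:62846001-62852000 and chr10:62689001-62695000 in siNeg replicates 1 and 3. The first IgG members were chr10:61300001-61307000 with siNeg and chr10:60431001-60436000 with siDNAJC9.

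At the other end the lists differed more. The last member was chr10:133236001-133241000 in siNeg CENP-A replicate 1 and chr10:127126001-127133000 in replicate 3. In siDNAJC9 CENP-A replicates 1 and 3 it was chr10:133612001-133619000 and chr10:134417001-134422000. In the siNeg and siDNAJC9 IgG lists it was chr10:134509001-134515000 and chr10:134563001-134574000, the latter ending at the last base used.

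**Figure D2:**
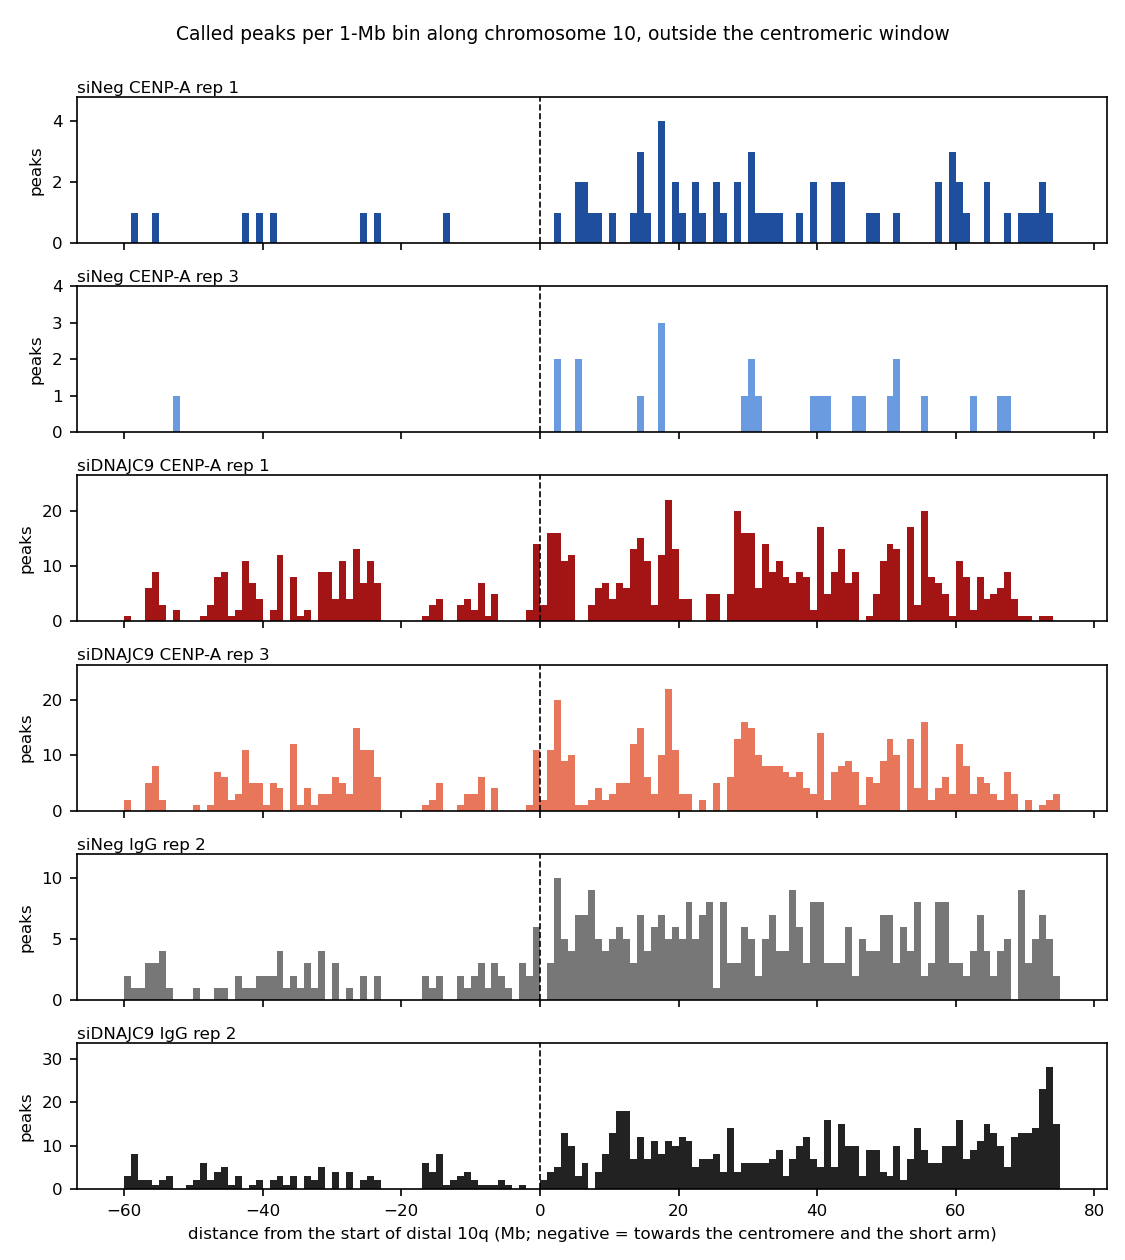
Number of peaks per 1-Mb bin along chromosome 10 outside the centromeric window in each of the 6 lists, against the distance from 60 Mb in Mb (dashed line). In the siDNAJC9 CENP-A lists tall and near-empty bins alternate beyond the line, whereas the IgG lists rise more evenly, with 2 empty distal bins for siNeg and 1 for siDNAJC9, and the siDNAJC9 IgG list rises again near the chromosome end.

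DNAJC9 depletion went with more CENP-A peaks on distal 10q. The number per library was 43 ± 26.9 (SD, n = 2) with siNeg and 514.5 ± 57.3 (SD, n = 2) with siDNAJC9, a 12.0-fold difference that ranged from 7.65-fold to 23.1-fold between single libraries. The length under peaks was 3.05 ± 1.89 and 53.4 ± 8.07 kb per Mb, a 17.5-fold difference (10.9-fold to 34.4-fold between single libraries). In each measure the siDNAJC9 and siNeg libraries did not overlap, with siDNAJC9 the higher. The exact two-sided permutation p was 0.333, the smallest that 2 libraries against 2 can give. Without siNeg replicate 1 the log2 ratios were 4.42 for the number and 4.96 for the length, in place of 3.58 and 4.13, and among peaks of at least 7 kb they were 6.33 and 6.78. The IgG lists, with 1 library for each siRNA and no test, also held more with siDNAJC9: 59.4 against 30.8 kb per Mb. On the other autosomes outside centromeric windows, CENP-A peaks numbered 372 and 114 in siNeg replicates 1 and 3. They numbered 9931 and 7749 in siDNAJC9 replicates 1 and 3. The length under peaks there was 0.796 and 0.267 kb per Mb with siNeg and 28.0 and 20.5 with siDNAJC9. By the group means, the rise on distal 10q was thus the smaller in both number and length.

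The excess of distal 10q over the rest of chromosome 10 was smaller with siDNAJC9 than with siNeg. The distal to proximal ratio of length under peaks was 12.1 ± 9.64 (SD, n = 2) with siNeg and 2.03 ± 0.0576 (SD, n = 2) with siDNAJC9, and the groups did not overlap (log2 ratio -2.57, exact two-sided permutation p = 0.333, again the smallest possible). The log2 ratio was -1.37 without siNeg replicate 3 and -3.22 without siNeg replicate 1, -1.89 with the start moved to 65 Mb, and -1.43 when the other autosomes replaced chromosome 10 before 60 Mb. In the IgG lists the ratio was 3.65 with siNeg and 4.68 with siDNAJC9.

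In 1-Mb bins, both siDNAJC9 CENP-A lists exceeded both siNeg CENP-A lists in 61 of the 75 distal 10q bins (81.3%), where 66.8% of the 2934 bins of the genome did so, and in 36 of the 55 bins before 60 Mb (65.5%). With each library scaled to the same total outside the centromeric windows the count was 23 of 75 (30.7%), where 54.9% of all bins did so, which put distal 10q below the genome and not above it. Scaling cannot separate or join the groups in bins without a siNeg CENP-A peak. Such bins made up all 23 of these distal bins and 1610 of the 1611 over the genome. They were 34.7% of the distal bins but 83.6% of all bins, so the scaled count cannot compare the response of distal 10q with that of the genome. limma on log2(kb per Mb + 1), with Benjamini-Hochberg adjustment over all 2934 bins, called 31 of the 75 bins higher with siDNAJC9 (41.3%), where 53.1% were called over the genome, and 29 of 55 before 60 Mb (52.7%). Which of the shares was the larger turned with the settings: the distal share was 57.3% against 50.1% over the genome with 5 kb in place of 1 kb added before the logarithm, 69.3% against 41.8% among peaks of at least 7 kb, and 86.7% against 79.2% in 5-Mb bins. It was the smaller, 62.3% against 83.8%, among bins with a peak in at least 2 CENP-A lists. With the replicate number added to the fit it was also smaller, 30.7% against 38.7%. The median log2 difference over the distal bins was 4.57 without siNeg replicate 1 (3.81 over all bins) and 3.52 without siNeg replicate 3 (3.46). It was 4.26 without siDNAJC9 replicate 1 (3.47 over all bins) and 4.54 without siDNAJC9 replicate 3 (3.91). With all 4 libraries limma called 0 distal bins lower (0 also at an unadjusted p under 0.05), where 0.239% of all bins were called. With the same scaling, 23 distal bins were called higher (30.7%, against 50.5% of all bins) and 4 lower (5.33%, against 0.613%). The median log2 difference was 4.46 over the distal bins and 3.65 over all bins. Scaling moved the median of all bins by -1.25, and the distal median relative to it went from 0.81 to -0.57, so that distal 10q lay above the genome median without scaling and below it with scaling. Because all bins came from the same 4 libraries, their p-values are too small.

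The share of bins called differed with the number of siNeg lists that had a peak there. Of 26 distal bins without a siNeg CENP-A peak, 23 were called higher (88.5%, against 62.3% of such bins over the genome), and of 9 bins with a peak in both siNeg lists, 7 were (77.8%, against 58.1%). Of 40 bins with a peak in 1 of the siNeg lists, 1 was called (2.5%, against 1.14%). Even so, siDNAJC9 exceeded siNeg without overlap in 31 of the 40, and in 321 of the 439 such bins over the genome. The siNeg values that sort the bins also enter the test, so these counts are a description. Bins with a peak in 1 siNeg list made up 53.3% of the distal 10q bins but 439 of the 2934 bins in all. In 14 distal bins the groups were not separated in favour of siDNAJC9. At 65 to 66 Mb siNeg replicates 1 and 3 had 10 and 11 kb under peaks and siDNAJC9 replicates 1 and 3 had 0 and 5 kb, and no other distal bin had both siNeg lists above both siDNAJC9 lists.

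Within distal 10q the siDNAJC9 CENP-A peaks were gathered in blocks. A bin was taken as dense when its length under peaks reached the 90th percentile of that list over the autosomal bins, which was 70 kb for siDNAJC9 replicate 1 and 53 kb for replicate 3. By this rule 26 of 75 distal bins (34.7%) were dense in replicate 1 and 29 (38.7%) in replicate 3, with 25 dense in both, whereas before 60 Mb 7 of 55 were dense in each. The longest dense run was 61 to 65 Mb in replicate 1 and 88 to 96 Mb in replicate 3. Replicate 3 was also dense throughout 61 to 65 Mb, and both lists had dense runs at 77 to 80 Mb and 109 to 112 Mb.

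The 5 bins with the highest mean siDNAJC9 CENP-A length lay apart from each other on the arm. The bin at 78 to 79 Mb held 191 kb (replicate 1) and 159 kb (replicate 3) under siDNAJC9 peaks, 22 in each list, with none in either siNeg CENP-A list and 32 and 60 kb in the siNeg and siDNAJC9 IgG lists. The bin at 62 to 63 Mb held 168 and 174 kb for siDNAJC9 replicates 1 and 3, beside 6 and 11 kb for siNeg replicates 1 and 3 and 51 and 41 kb for the IgG lists. The bin at 115 to 116 Mb held 155 and 130 kb in the siDNAJC9 CENP-A lists, 0 and 5 kb in the siNeg ones, and 11 and 52 kb in the IgG lists. In these 3 bins each siDNAJC9 CENP-A library was above each siNeg CENP-A library and above both IgG lists. The bins were picked by their siDNAJC9 CENP-A length, which favours that order, so it is a description only. At 88 to 89 Mb the siDNAJC9 libraries had 148 and 106 kb, and at 74 to 75 Mb 126 and 118 kb. The siNeg CENP-A lists held 10 and 0 kb in the former and 16 and 5 kb in the latter.

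Other bins were empty of CENP-A peaks in both siDNAJC9 lists, namely 82 to 83, 86 to 87, 112 to 113 and 131 to 132 Mb. The siNeg IgG list had 31, 48, 31 and 35 kb under peaks in them, and the siDNAJC9 IgG list 33, 27, 11 and 87 kb. siNeg CENP-A replicate 1 had 10, 5, 0 and 6 kb there and replicate 3 had none. Each of the 4 bins held peaks of both IgG lists. Nearly all distal bins did so: of 75, only 2 were empty in the siNeg IgG list and 1 in the siDNAJC9 IgG list. A siNeg CENP-A peak was present in 3 of the 4, while 26 of the 75 distal bins (34.7%) had none. Next lowest, and tied, were 65 to 66 Mb, given above, and 66 to 67 Mb, with 0 and 5 kb for siDNAJC9 replicates 1 and 3 beside 12 and 0 kb for siNeg.

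Peak-free stretches likewise differed between lists. The longest without a peak of either siDNAJC9 CENP-A list was chr10:81475001-83277000 (1802 kb), where each IgG list had 10 peaks and siNeg CENP-A replicate 1 had 2. In siDNAJC9 replicate 1 alone the longest was chr10:64575001-67283000 (2708 kb), with 20 siNeg IgG peaks, 13 siDNAJC9 IgG peaks, and 4 and 2 peaks of siNeg CENP-A replicates 1 and 3. In siDNAJC9 replicate 3 alone it was chr10:85532001-87494000 (1962 kb). The sparse siNeg lists left far longer gaps: chr10:111827001-117083000 (5256 kb) in replicate 1, where siDNAJC9 replicates 1 and 3 had 50 and 36 peaks, and chr10:77789001-89085000 (11296 kb) in replicate 3, where they had 80 and 66. The longest gaps of the siNeg and siDNAJC9 IgG lists were 1409 and 1510 kb.

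By empty bins, the IgG peaks were laid out more evenly than the siDNAJC9 CENP-A peaks. The siNeg and siDNAJC9 IgG lists had 2 and 1 empty distal bins, against 9 and 6 in siDNAJC9 CENP-A replicates 1 and 3. Dense bins, by each list's own 90th percentile (18 kb for siNeg IgG and 34 kb for siDNAJC9 IgG), numbered 60 of 75 (80.0%) with siNeg and 59 (78.7%) with siDNAJC9, and 48 were dense in both, against 5 and 3 of the 55 bins before 60 Mb. Because the siNeg IgG list had set the start at 60 Mb, these counts are a description. Of the 25 bins dense in both siDNAJC9 CENP-A lists, 14 were dense in both IgG lists too. Over the 75 distal bins, Pearson's r of length under peaks was 0.94 between the siDNAJC9 CENP-A replicates (Spearman's rho 0.92), but -0.23 (-0.13) between siDNAJC9 CENP-A replicate 1 and siDNAJC9 IgG, and -0.18 (-0.09) for replicate 3. The siNeg and siDNAJC9 IgG lists gave -0.11 (-0.15), and the siNeg CENP-A replicates 0.31 (0.09). These correlations are over bins of the same libraries, whose depth and peak calling are shared by all bins, and they describe those libraries only. Over the 55 bins before 60 Mb the siDNAJC9 CENP-A replicates gave 0.92 (0.90).

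**Figure D3:**
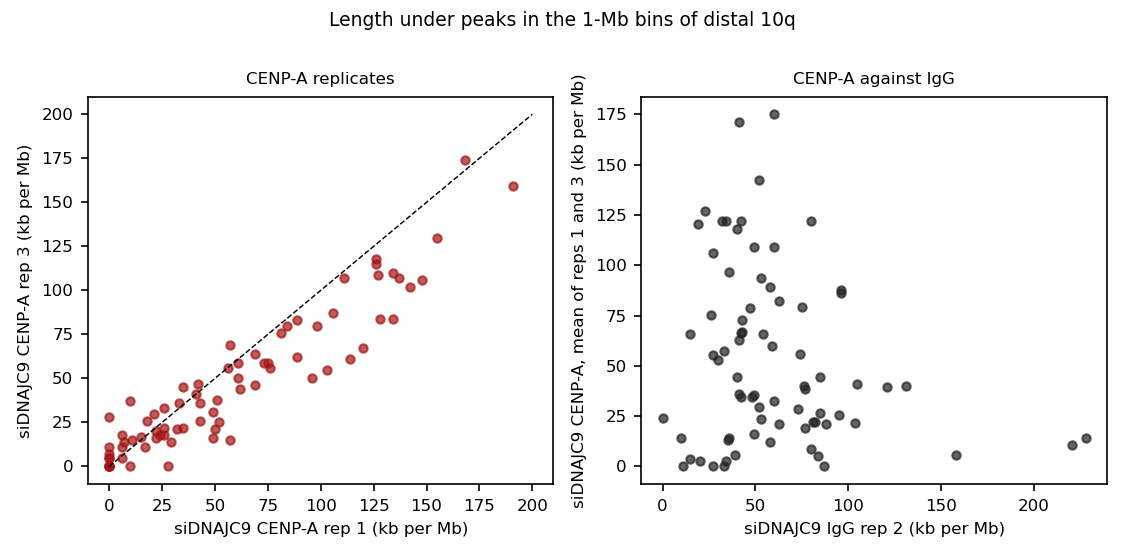
Length under peaks in the 75 distal 10q bins of 1 Mb (kb per Mb, 1 point per bin). On the left, siDNAJC9 CENP-A replicate 3 rises with replicate 1 (r = 0.94), up to 174 and 191 kb. Most points lie below the dashed line of equality, with replicate 1 the higher in 50 bins and replicate 3 in 19. On the right, the mean of the siDNAJC9 CENP-A replicates against the siDNAJC9 IgG list shows no rise (r = -0.23 and -0.18 for the single replicates).

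The last stretch of the arm was where the siDNAJC9 CENP-A and IgG lists parted most. From 130 Mb to the end siDNAJC9 CENP-A replicates 1 and 3 had 3 and 8 peaks (4.15 and 10.1 kb per Mb), after 62.7 and 50.2 kb per Mb between 60 and 130 Mb. The siDNAJC9 IgG list had 93 peaks there, or 148 kb per Mb, after 53.6 kb per Mb. The siNeg IgG list stayed at 28.6 kb per Mb, after 31.0. siNeg CENP-A replicate 1 had 5 peaks there and replicate 3 had 0. Among the 5-Mb segments the siDNAJC9 CENP-A lists were highest at 60 to 65 Mb (105 and 86.2 kb per Mb), 90 to 95 Mb (100 and 82.8) and 75 to 80 Mb (94.8 and 77). Before 130 Mb they were lowest at 80 to 85 Mb (17 and 9.8). Replicate 1 was at or above replicate 3 in each segment before 130 Mb and below it in the last.

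**Figure D4:**
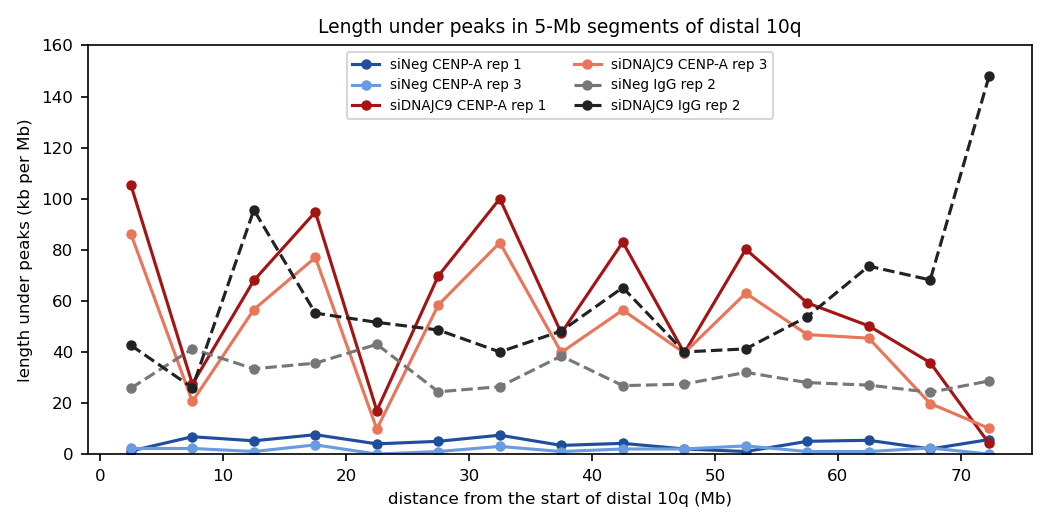
Length under peaks (kb per Mb) in successive 5-Mb segments of distal 10q, the last one shorter, against the distance of the segment's middle from 60 Mb, for the CENP-A lists (solid lines) and IgG lists (dashed lines). The siDNAJC9 CENP-A lines rise and fall together, between 105 and 4.15 kb per Mb in replicate 1, and in the last segment the siDNAJC9 IgG line reaches 148 kb per Mb.

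siDNAJC9 CENP-A peaks were wider than siNeg CENP-A peaks and IgG peaks. The median width on distal 10q was 5 kb in both siNeg CENP-A lists, 7 kb in both siDNAJC9 CENP-A lists and 6 kb in both IgG lists. Peaks of exactly 5 kb, the narrowest width in the lists, made up 50 of 62 (80.6%) and 19 of 24 (79.2%) in siNeg replicates 1 and 3, 28.8% and 31.9% in siDNAJC9 replicates 1 and 3, and 46.8% and 48.7% in the IgG lists. No siNeg CENP-A peak was wider than 8 kb. The widest siDNAJC9 peaks were chr10:94335001-94368000 (33 kb) in replicate 1 and chr10:92470001-92502000 (32 kb) in replicate 3, while the widest IgG peaks measured 14 kb with siNeg and 20 kb with siDNAJC9.

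Widths on distal 10q were close to those on the rest of the chromosome in the siDNAJC9 CENP-A lists and larger in the IgG lists. Peaks of at least 7 kb made up 56.9% (95% Wilson interval 52.8 to 61.0) of distal peaks in siDNAJC9 CENP-A replicate 1 against 54.5% (47.8 to 61.0) before 60 Mb. In replicate 3 they made up 52.3% (47.8 to 56.8) against 48.4% (41.3 to 55.5). In the siNeg IgG list they made up 29.9% (25.5 to 34.8) against 16.9% (10.3 to 26.3), and in the siDNAJC9 IgG list 33.7% (30.3 to 37.3) against 18.5% (12.5 to 26.4). These intervals cover counting error only, and peaks of 1 library are not replicates. Peaks of at least 15 kb numbered 31 (5.59%) and 17 (3.59%) in siDNAJC9 CENP-A replicates 1 and 3, against 4 (1.88%) and 5 (2.69%) before 60 Mb. The median gap between neighbouring siDNAJC9 CENP-A peaks was 45.5 and 60 kb on distal 10q and 70 and 87.5 kb before it.

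The siDNAJC9 CENP-A replicates agreed on distal 10q about as often as on the rest of chromosome 10. Of the 474 peaks of replicate 3, 260 (54.9%, 95% Wilson interval 50.4 to 59.3) shared at least 1 bp with a peak of replicate 1, which covered 5.91% of the stretch. The share was 55.4% (48.2 to 62.3) on chromosome 10 before 60 Mb and 54.2% (53.1 to 55.3) on the other autosomes, where replicate 1 covered 2.85% and 2.80%. In the other direction 261 of 555 (47.0%, 42.9 to 51.2) replicate 1 peaks were found in replicate 3, which covered 4.77% of the stretch, against 47.4% before 60 Mb and 41.9% (41.0 to 42.9) on the other autosomes. Replicate 3 covered 2.39% before 60 Mb and 2.05% of the other autosomes, so coverage was higher on distal 10q in both directions. Of 6038 kb under a peak in either list, 1927 kb were under both, a Jaccard index of 0.319 against 0.313 before 60 Mb.

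Agreement rose with width. Of the distal replicate 3 peaks of 5 kb, 39 of 151 (25.8%) overlapped a replicate 1 peak, and the share was 45.3% at 6 kb, 68.0% at 7 to 9 kb, 94.3% at 10 to 14 kb and 94.1% at 15 kb or more. For replicate 1 the shares in the same order were 16.9%, 29.1%, 57.7%, 80.6% and 96.8%. Before 60 Mb 43.1% of the 5-kb peaks of replicate 3 and 17 of 68 of those of replicate 1 overlapped. Wider peaks also have more bases with which to overlap, and the part of this in the rise was not tested. Where 1 peak of each list matched (250 pairs), both edges lay within 2 kb of each other in 161 pairs (64.4%). The replicate 1 peak was the wider in 128 pairs, the replicate 3 peak in 83, and the widths were equal in 39. From 130 Mb to the end 0 of the 8 replicate 3 peaks overlapped a replicate 1 peak, and at 80 to 85 Mb 2 of 8 did.

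**Figure D5:**
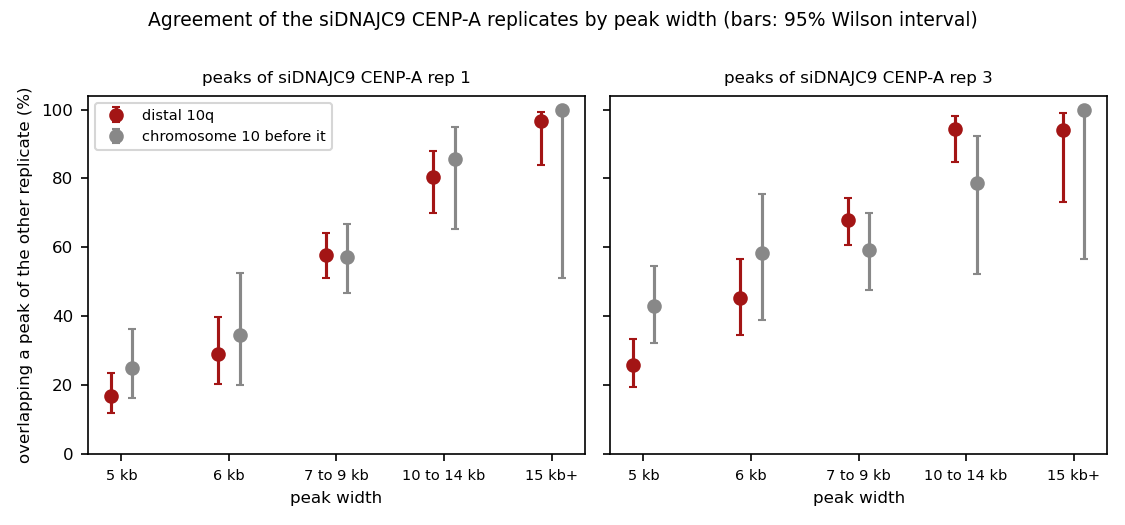
Share of distal 10q siDNAJC9 CENP-A peaks (red) that overlapped a peak of the other replicate by at least 1 bp, by peak width, for replicate 1 (left) and replicate 3 (right), beside chromosome 10 before 60 Mb (grey); bars are 95% Wilson intervals. On distal 10q the share runs from 16.9% at 5 kb to 96.8% at 15 kb or more in replicate 1 and from 25.8% to 94.1% in replicate 3.

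The overlapping peaks of siDNAJC9 CENP-A replicates 1 and 3 merged into 258 shared regions on distal 10q (3.46 per Mb, 2870 kb in all, median 10 kb), against 102 (1.85 per Mb, median 9 kb) on chromosome 10 before 60 Mb. They fell in 54 of the 75 bins, with the most, 14, at 115 to 116 Mb and 13 at 78 to 79 Mb. Of the 258, 184 (71.3%) held no peak of any of the other 4 lists. siNeg CENP-A replicate 1 had a peak in 8 of them and replicate 3 in 5, and the siNeg and siDNAJC9 IgG lists in 18 and 51.

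The longest shared regions were chr10:92470001-92503000 and chr10:94335001-94368000, of 33 kb each. The former was under a peak of 25 kb in replicate 1 and one of 32 kb in replicate 3, and the latter under a peak of 33 kb in replicate 1 and 2 peaks of 18 kb in all in replicate 3. chr10:89522001-89549000 (27 kb) was uneven, with 26 kb in replicate 1 and 7 kb in replicate 3. chr10:62481001-62505000 (24 kb), with 24 and 23 kb in replicates 1 and 3, was nearly the same in both. None of these 4 held a peak of the siNeg CENP-A or IgG lists.

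Among the next in length, chr10:95060001-95083000 and chr10:103147001-103170000 (23 kb each) were likewise free of peaks of the other 4 lists. chr10:78044001-78069000 (25 kb) held a siNeg IgG peak of 5 kb, chr10:68959001-68983000 (24 kb) a peak of 6 kb in each IgG list, and chr10:74910001-74932000 (22 kb, one of 3 regions of this length) a siDNAJC9 IgG peak of 7 kb. chr10:62889001-62912000 (23 kb) was the only one of these 10 regions with a siNeg CENP-A peak, of 5 kb in replicate 3.

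The siNeg CENP-A replicates had no overlapping peaks on distal 10q. None of the 62 replicate 1 peaks overlapped any of the 24 replicate 3 peaks, which allows a share of up to 5.83% of the former and 13.8% of the latter (upper 95% Wilson bounds). The 1-bp rule left out 2 pairs only 1 kb apart, chr10:65676001-65681000 of replicate 1 with chr10:65682001-65687000 of replicate 3, and chr10:90430001-90435000 with chr10:90436001-90441000. Of the 24 replicate 3 peaks 4 lay within 20 kb of a replicate 1 peak, and the median distance was 143.5 kb. On the other autosomes outside centromeric windows 19 of 372 replicate 1 peaks (5.11%) and 19 of 114 replicate 3 peaks (16.7%) overlapped by the 1-bp rule. Of the replicate 1 peaks 13 (21.0%, 12.7 to 32.6) lay on a siNeg IgG peak, and of the replicate 3 peaks 6 of 24 (interval 12.0 to 44.9%), with 3.08% of the stretch under siNeg IgG peaks. On the other autosomes the shares were 7.53% and 7.89%, with 0.768% under siNeg IgG peaks.

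A minority of the siNeg CENP-A peaks lay under a siDNAJC9 CENP-A peak. Of the replicate 1 peaks 15 of 62 (24.2%, 15.2 to 36.2) overlapped a peak of either siDNAJC9 list, and of the replicate 3 peaks 8 of 24 (33.3%, 18.0 to 53.3), with 8.10% of the stretch under a siDNAJC9 CENP-A peak. On chromosome 10 before 60 Mb 4 of 8 and 0 of 1 did. The shares on the other autosomes were 24.5% and 33.3%, with 3.79% under siDNAJC9 CENP-A peaks. With peaks on IgG peaks left out, 3 of 18 (16.7%) replicate 3 peaks were kept.

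Peaks kept in both siDNAJC9 lists numbered 8 of replicate 1 and 5 of replicate 3. The 5 were chr10:62689001-62695000, chr10:62894001-62899000, chr10:77361001-77369000, chr10:110955001-110961000 and chr10:127126001-127133000. Of these, chr10:62689001-62695000, chr10:77361001-77369000 and chr10:127126001-127133000 also lay on a siNeg IgG peak, and chr10:77361001-77369000, at 8 kb, was the widest of its list. The siNeg peaks that were not kept lay a median of 62 kb (replicate 1) and 23 kb (replicate 3) from the nearest siDNAJC9 CENP-A peak, and at most 570 and 249 kb.

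siDNAJC9 CENP-A peaks met siDNAJC9 IgG peaks more often on distal 10q than elsewhere, and more of distal 10q was also under siDNAJC9 IgG peaks. Of the distal peaks of replicates 1 and 3, 100 of 555 (18.0%) and 83 of 474 (17.5%) overlapped one, with 5.94% of the stretch under siDNAJC9 IgG peaks. Before 60 Mb 5.16% and 6.99% did, with 1.27% under IgG peaks, and on the other autosomes 4.03% and 4.08%, with 1.33%. The siNeg and siDNAJC9 IgG lists overlapped in 29 of 374 peaks (7.75%) of the former and 29 of 688 (4.22%) of the latter, beside coverage by the other list of 5.94% and 3.08%. Since an overlap of 1 bp sufficed, peaks placed at random would overlap more often than these coverages. A share above the coverage is therefore no sign of an excess, and random placement was not run. Both IgG lists were thus dense on distal 10q while sharing few peaks.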

How the data were processed

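The authors deposited, for each library, a list of broad peaks (chromosome, start and end) on T2T-CHM13v2.0. Per the study's methods, reads were trimmed with Cutadapt and aligned with Bowtie 2, E. coli DNA served as spike-in, and peaks were called with GoPeaks in the CARLISLE pipeline. File names show that each list was called against a further IgG library of its siRNA, which was not analysed here. Positions are whole kb, the narrowest peak is 5 kb, and no list holds counts or scores. The depth of each single library is therefore unknown beyond the range stated by the study. A region under the caller's threshold cannot be told from one without signal.

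Peaks were assigned by midpoint. The centromeric window was the 5-Mb window with the most siNeg replicate 1 coverage. Overlap meant at least 1 bp, with 95% Wilson intervals, which cover counting error only. The share of a stretch under peaks, given beside overlaps, is lower than the overlap of randomly placed peaks would be, because peaks span several kb. Lengths under peaks were summed in 1-Mb bins (bins with under 0.5 Mb outside a window were left out) and tested with limma 3.58.1 (R 4.3.3) at an adjusted p of 0.05, without a replicate block, after a check on simulated data. Group values were compared by exact two-sided permutation over libraries. The study tested read counts, which lists of positions do not allow. Named regions were the 10 longest shared regions, the 5 highest and lowest bins, the longest gaps, siNeg peaks in both replicates, and the first and last members; the siNeg peaks kept in both siDNAJC9 lists, and the siNeg pairs 1 kb apart, were added after their values were seen. The members, lists and rules were chosen with earlier results of these data known. No T2T-CHM13 annotation was used here, so no genes or sequences are given for the peaks. Alternatives were minimum width, IgG overlap, start, end (chosen after seeing the data), joining, window, reference, pseudocount, filter, bin size, scaling, pairing and leaving out each library. Lists were handled in Python 3.11.15 with pandas 2.3.3, and exact tests and intervals came from scipy 1.17.1.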

Additional observations from a re-analysis of the deposited data

How the results depend on the processing

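Of 59 alternative values, 51 were labelled as unchanged, 8 as moved and 0 as reversed. Number, length and density ratio were judged by direction alone, with no limit on size. The other results were judged by a limit on the change alone, so they could not count as reversed. Bins called after scaling counted as unchanged. Yet the distal share of bins with siDNAJC9 above siNeg without overlap went from 81.3% (66.8% over the genome) to 30.7% (54.9%). After scaling, the separated bins were almost only bins without a siNeg CENP-A peak. The distal bins called higher were 13 of 15 with 5-Mb bins (79.2% over the genome), 52 of 75 with peaks of at least 7 kb (41.8%), 43 of 75 (50.1%) with a pseudocount of 5 kb in place of 1 kb, and 43 of 69 (83.8%) with only bins that had a peak in at least 2 CENP-A lists. The replicates agreed for 48.1% of replicate 3 peaks at 50% reciprocal overlap and 64.5% at 7 kb or more. siNeg replicate 3 peaks kept were 100% (2 of 2) at 7 kb or more and 16.7% without those on IgG peaks. The step of the siDNAJC9 IgG list moved to 132 Mb by length and to 63 Mb over the whole chromosome. The cause was not tested. Leaving out 1 library gave log2 ratios of 3.05 to 4.42 for the number, 3.61 to 4.96 for the length and -3.22 to -1.37 for the distal to proximal ratio. The median log2 difference of the bins was then 3.52 to 4.57 on distal 10q and 3.46 to 3.91 over the genome. Replicate numbers were shared between the siRNAs without a stated pairing (correlation of deviations 0.00545 over all bins and -0.0910 on distal 10q), and with the replicate number as a block 23 distal bins (30.7%) and 1134 in all (38.7%) were called higher. The distal to proximal ratio could not be computed for peaks of at least 7 kb, since siNeg replicate 3 had none before 60 Mb. With 2 libraries a group, no test of a single value could go below p = 0.333 (exact permutation).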
